A study of Mus musculus with 2 samples.

Results

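The cells described here are γδ and innate-like T cells of tumour-draining lymph nodes: 133 cells that carried at least 1 transcript of Trdc, the constant gene of the T cell receptor δ chain, or of Zbtb16, the gene of the transcription factor PLZF. They were chosen on raw unique molecular identifiers (UMIs, tags that mark single captured mRNA molecules). A cell had over 200 detected genes, at most 5% of its UMIs in mitochondrial genes, at least 1 UMI of Cd3d, Cd3e and Cd3g summed, at least 1 UMI of Trdc and Zbtb16 summed, no UMI of Cd8b1, Foxp3 or Ncr1, at most 1 UMI of Cd79a and Cd79b summed and under 5 UMIs of Krt8 and Krt18 summed. Of the 133 members, 103 had a Trdc UMI (the Trdc-positive cells) and 30 had a Zbtb16 UMI and no Trdc UMI (the Zbtb16-only cells). They were 133 of 24044 cells in both libraries and 1.18% of the 11269 lymph node cells that passed the gene and mitochondrial limits. All other cells that met the same conditions with no Trdc and no Zbtb16 UMI are called the remaining T cells (2208 cells). Levels of the genes in the rule chose the members, so they are given as a description and are no finding.

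The libraries came from female C57BL/6J mice, which carry no transgene or deletion here, bearing EO771-HEVM3 mammary tumours in the mammary fat pad. EO771 is a mouse breast cancer cell line, and HEVM3 is a derivative selected by repeated passage in mice for tumour cells that had reached the lung through the high endothelial venules (HEVs) of lymph nodes. The lymph nodes gave 1 single-cell RNA library and the primary tumor gave the other, each pooled from 6 mice with no map from cells to mice. The study describes the nodes as metastatic and as paired with the primary tumors of the same 6 mice. C57BL/6 mice were obtained at 5 to 6 weeks of age, and the age at collection and the time from tumour injection are not given in the sources used here. With 1 library per tissue there is no replicate check: no test was made, and every interval in parentheses is a 95% interval that covers counting error only, exact Poisson for levels, exact Clopper-Pearson for shares of cells and exact conditional for ratios. Levels are in CPM, UMIs of a gene per 1000000 UMIs of the summed cells.

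Most T cells carry a receptor of an α and a β chain, and γδ T cells carry a γ and a δ chain instead. Many γδ T cells leave the thymus with a fixed readiness to make interleukin 17 (type 17 cells, which rely on the factor MAF, among others) or interferon γ (type 1 cells, which rely on T-bet). PLZF marks innate-like T cells, among them invariant natural killer T cells, mucosal-associated invariant T cells and some γδ T cells, which respond within hours to cytokines and non-peptide antigens and hold memory-like traits without prior exposure. In lymph nodes such cells are few beside naive αβ T cells, which enter through HEVs with homing receptors such as the one encoded by Ccr7.

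The lymph node library held 11617 cells with 122207852 UMIs and a median of 2630 UMIs per cell, and the primary tumor library held 12427 cells with 173317475 UMIs and a median of 9161. Trdc-positive cells had a median of 2681 UMIs, Zbtb16-only cells 3138 and the remaining T cells 2690, so that depth was alike by the median, with the largest cells apart. Their median mitochondrial shares were 1.79%, 2.12% and 1.99%. Barcodes were shared by both libraries in 47 cases, 1 of them a member.

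Members made up 5.68% (4.78 to 6.70) of the 2341 gated T cells without a Cd8b1 UMI, with Trdc-positive cells at 4.40% (3.61 to 5.31) and Zbtb16-only cells at 1.28% (0.866 to 1.82). Trdc UMIs numbered 269 in the Trdc-positive cells, a level of 689 CPM (609 to 776), and Zbtb16 UMIs numbered 46 in the Zbtb16-only cells, 453 CPM (331 to 604). At the edge of the rule, 47 Trdc-positive cells had a single Trdc UMI, 56 had 2 or more and the most was 19, while 21 Zbtb16-only cells had a single Zbtb16 UMI, 9 had 2 or more and the most was 5. Both genes were present in 8 of the Trdc-positive cells. After each cell was thinned to 1000 UMIs, which left out 17 shallower gated T cells and 48 B cells, Trdc was present in 2.52% (1.92 to 3.24) of the gated T cells, against 0.0460% (0.00575 to 0.164) of B cells, a cell type that should lack it. The unthinned B cell share was 6 of 4485 cells, or 0.134%, at a median of 1837 UMIs. For Zbtb16 the thinned shares were 0.667% (0.378 to 1.09) of gated T cells and 0.00307% of B cells. In Cd8b1-positive T cells, which the rule left out, Trdc was present in 21 of 1178 cells (1.78%, and 0.573% after thinning).

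A single Trdc-positive cell stood apart. It held 82402 UMIs, 21.1% of all UMIs of the 103 cells, where the next largest member held 9571. It had 1 Trdc UMI and 1 Cd3e UMI, none of Ptprc (the leukocyte antigen CD45), Trac, Trbc1, Trbc2 or Thy1, and 14 UMIs of Pecam1 and 11 of Cdh5, genes of endothelial cells, with 67 of the cell cycle gene Top2a and 340 of the chemokine gene Ccl5. Among the remaining T cells, 30 cells with over 6000 detected genes held 24.1% of that group's UMIs, and all 30 had Pecam1 and Cdh5 UMIs while 13 had Ptprc. The study left out cells with over 6000 genes, and the rule used here does not, so the main results that move with these large cells are also given without them. The rule uses no doublet caller, so no doublets were removed, while the study filtered doublets with DoubletFinder. Scrublet, another doublet caller, marked no lymph node cell and 633 primary tumor cells (6.34%) by its automatic cut. Of the members, 1 lay above the 94th percentile of its score.

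The first question was whether the members carry the receptor chains that their rule did not use. UMIs of the γ chain constant genes were found in 41.7% (32.1 to 51.9) of Trdc-positive cells and in 33.3% (17.3 to 52.8) of Zbtb16-only cells, against 0.951% (0.590 to 1.45) of the remaining T cells and 1 of 4485 B cells. After thinning to 1000 UMIs these shares were 20.9%, 12.9%, 0.357% and 0.00556%. Trac, the α chain constant gene, showed another order: it was present in 14.6% (8.39 to 22.9) of Trdc-positive cells, 70.0% (50.6 to 85.3) of Zbtb16-only cells and 56.2% (54.1 to 58.2) of the remaining T cells, against 0.803% of B cells. The thinned Trac shares were 6.11%, 34.3%, 28.5% and 0.337%. UMIs of the β chain constant genes Trbc1 and Trbc2 were found in 87.4%, 96.7% and 94.9% of the 3 T cell groups.

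Cells with more Trdc UMIs had γ chain UMIs more often and Trac UMIs less often, by share, although the intervals overlap for both. Of cells with a single Trdc UMI, 27.7% (15.6 to 42.6) had a γ constant UMI and 21.3% (10.7 to 35.7) had Trac. Of cells with 2 or more, 53.6% (39.7 to 67.0) had a γ constant UMI and 8.93% (2.96 to 19.6) had Trac, at like depth (medians of 2712 and 2679 UMIs). Among all 103 Trdc-positive cells, 39 had γ without Trac, 4 had both, 11 had Trac without γ and 49 had neither. Among the 30 Zbtb16-only cells, 9 had both γ and Trac UMIs, 1 had γ without Trac, 12 had Trac without γ and 8 had neither. γ chain UMIs alone did not separate the member groups: their intervals overlap, and 9 of the 10 Zbtb16-only cells with γ also had Trac. γ without Trac was found in 39 of 103 Trdc-positive and 1 of 30 Zbtb16-only cells. Trac had UMIs in only 56.2% of the remaining T cells, so its absence decides little in a single cell. The label γδ was thus borne out in a part of the Trdc-positive cells at most, and Zbtb16-only cells mostly carried Trac.

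**Figure D1:**
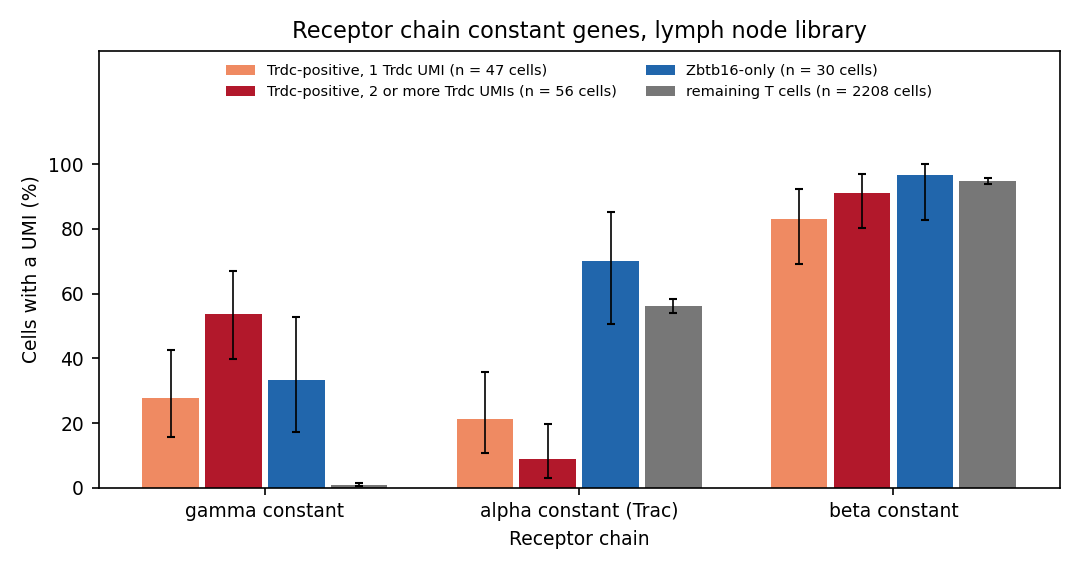
Share of cells with at least 1 UMI of the γ constant genes, of Trac (α constant) and of the β constant genes, in percent, for Trdc-positive cells with 1 and with 2 or more Trdc UMIs, Zbtb16-only cells and remaining T cells; bars are shares and lines are 95% Clopper-Pearson intervals. γ constant UMIs reach 53.6% of cells with 2 or more Trdc UMIs and 0.951% of the remaining T cells, while Trac is found in 70.0% of Zbtb16-only cells and 8.93% of cells with 2 or more Trdc UMIs.

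Trdc lies at chr14:54142851-54148868 on the plus strand of GRCm38, inside the α and δ chain locus, and Zbtb16 at chr9:48654297-48836222 on the minus strand. The 4 γ constant genes lie on chromosome 13, Trgc1 at chr13:19214103-19217024, Trgc3 at chr13:19260884-19263528 and Trgc4 at chr13:19344558-19352756 on the plus strand and Trgc2 at chr13:19304649-19307551 on the minus strand. Trgc1, Trgc2 and Trgc3 are near-identical copies and Trgc4 is a less similar one, and the level of each copy is reported as uncertain, since reads from the 3′ ends may not tell them apart, which was not measured here. The first 90 bases of each constant gene are shown with capitals at the bases that differ from Trgc1. They were taken from the GENCODE vM21 transcripts (GRCm38) on the strand of the gene. These bases are the 5′ start, so their likeness does not measure how well reads from the 3′ ends tell the copies apart.

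Trgc1: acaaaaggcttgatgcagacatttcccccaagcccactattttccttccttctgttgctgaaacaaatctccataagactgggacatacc
Trgc2: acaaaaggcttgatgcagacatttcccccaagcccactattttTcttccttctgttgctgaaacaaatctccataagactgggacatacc
Trgc3: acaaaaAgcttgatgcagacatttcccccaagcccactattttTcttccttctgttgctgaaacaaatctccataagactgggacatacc
Trgc4: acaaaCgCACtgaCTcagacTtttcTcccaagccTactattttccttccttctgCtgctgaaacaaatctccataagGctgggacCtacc

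In these 90 bases, Trgc2 differs from Trgc1 at 1 base (98.9% identity), Trgc3 at 2 (97.8%) and Trgc4 at 12 (86.7%).

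With that limit, Trgc1 was counted at 120.4 CPM (88.4 to 160.0) in Trdc-positive cells (24 of 103 cells), 88.6 CPM (40.5 to 168) in Zbtb16-only cells (5 of 30) and 1.32 CPM (0.684 to 2.31) in the remaining T cells (10 of 2208). Trgc4 was at 51.2 CPM (31.3 to 79.1) in Trdc-positive cells, in 15 cells, against 0.662 CPM (0.243 to 1.44) in the remaining T cells. Trgc2 was at 35.9 CPM (19.6 to 60.2) in 13 Trdc-positive cells, and Trgc3 had 1 UMI. All 3 well-counted copies were thus far above the remaining T cells. Variable segments were sparse. Trdv4, a δ variable segment at chr14:54074905-54075515, had 22 UMIs in 10 Trdc-positive cells, all 10 of them among the 56 cells with 2 or more Trdc UMIs, and none in Zbtb16-only cells. Trgv2 was found in 8 Trdc-positive cells and Trgv6 in 2. Trav11, a variable segment of the α chain of invariant natural killer T cells, had a UMI in 3 of 30 Zbtb16-only cells and in 2 of 2208 remaining T cells, and Traj18, its joining segment, had none in any of the 3 groups.

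Rora and Cxcr6, proposed as markers of these cells and not part of the rule, were highest in Zbtb16-only cells. Rora, which encodes the nuclear receptor RORα, stood at 1200.4 CPM (997 to 1433) in Zbtb16-only cells, 320.1 CPM (266 to 381) in Trdc-positive cells and 105 CPM (98.0 to 111) in the remaining T cells. It was found in 29 of 30, 45 of 103 and 463 of 2208 cells, and after thinning in 65.9% of Zbtb16-only cells and 10.2% of the remaining T cells, against 0.170% of B cells. Cxcr6, a chemokine receptor of tissue-resident lymphocytes, stood at 708 CPM (554 to 892), 113 CPM (81.9 to 151) and 13.1 CPM (10.9 to 15.7) in the same order. Its UMIs were in 27, 22 and 54 cells, and the thinned shares were 50.1%, 10.5% and 1.21%, against 0.0201% of B cells. For both genes the intervals of the 3 groups do not overlap.

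**Figure D2:**
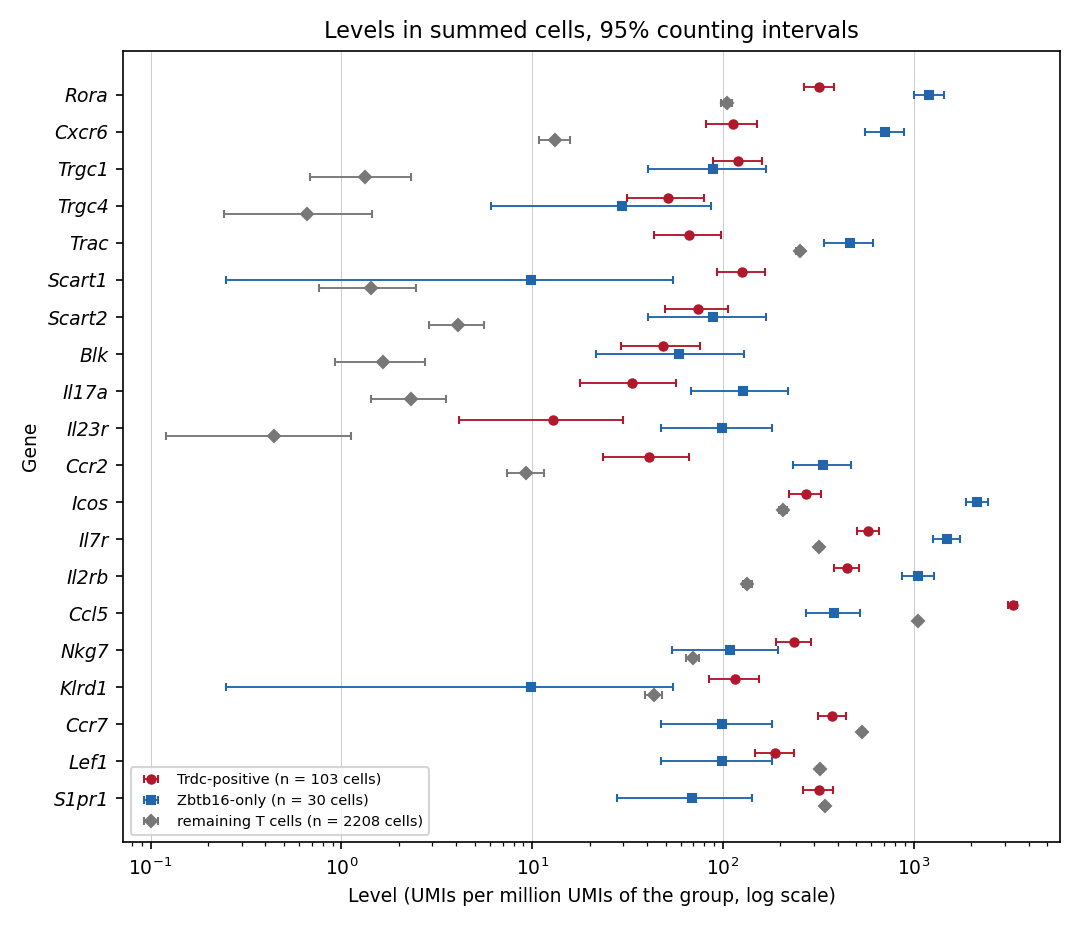
Level of 20 genes in CPM of the summed cells (log scale) in Trdc-positive cells (103), Zbtb16-only cells (30) and remaining T cells (2208); points are levels and lines are 95% Poisson intervals. Rora and Cxcr6 reach 1200.4 and 708 CPM in Zbtb16-only cells, Ccl5 reaches 3298 CPM in Trdc-positive cells, and Ccr7, Lef1 and S1pr1 are lowest in Zbtb16-only cells.

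Trdc-positive cells differed from the remaining T cells by higher levels of genes of both the type 17 and the type 1 programmes, and by lower levels of Trac and Cd4. Of 10495 genes with at least 20 UMIs over both groups, 8.18% were at least 2-fold higher and 10.1% at least 2-fold lower in Trdc-positive cells, and the median log2 ratio was 0.04. Of 21 type 17 genes tested, 15 were at least 2-fold higher and none lower, with a median of 1.62. Of 27 type 1 and cytotoxic genes, 21 were higher and 2 lower, with a median of 1.48. Of 20 genes that innate-like T cells share, 11 were higher and 1 lower, with a median of 1.11. A ratio whose counting interval also left out equal levels was reached by 3.44% (higher) and 2.71% (lower) of all genes, and by 14, 18 and 9 of the higher genes in these lists. Without cells over 6000 genes the medians were 1.90, 1.42 and 1.28.

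Within the type 17 programme, Scart1 (annotated as Cd163l1) and Scart2 (annotated as 5830411N06Rik), scavenger receptors of interleukin 17-producing γδ T cells, stood out. Scart1 had 49 UMIs in 16 Trdc-positive cells, 125 CPM (92.8 to 166), against 1.43 CPM (0.763 to 2.45) in the remaining T cells, a log2 ratio of 6.41 (5.55 to 7.46). Scart2 stood at 74.3 CPM (49.7 to 107) against 4.08 CPM (2.87 to 5.62). Blk, a Src family kinase of γδ T cells and B cells, stood at 48.7 CPM (29.3 to 76.0) in 11 cells against 1.65 CPM (0.926 to 2.73). Il17a, the cytokine itself, had 13 UMIs in 8 cells, 33.3 CPM (17.7 to 56.9), against 2.32 CPM (1.43 to 3.54), and Il17f had UMIs in 5 cells. The factors of the programme were counted as well: Sox13 had UMIs in 6 cells, and Maf stood at 125 against 59.0 CPM. Other genes of the list were higher as well, among them Tmem176a (169 against 40.0 CPM, 25 cells), the calcium-binding protein gene S100a4 (822 against 237 CPM, 36 cells) and Actn2 (log2 ratio 3.06 (2.27 to 3.77), 16 cells).

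Within the type 1 programme, the larger gaps were in receptors known from natural killer cells. Klrc1, the gene of the inhibitory receptor NKG2A, stood at 48.7 CPM (29.3 to 76.0) in 10 Trdc-positive cells against 4.74 CPM (3.43 to 6.39) in the remaining T cells. Klrk1, which encodes the activating receptor NKG2D, stood at 69.1 CPM (45.6 to 101) in 18 Trdc-positive cells against 8.49 CPM (6.70 to 10.6) in the remaining T cells, and Klrc2, the gene of the receptor NKG2C, at 35.9 CPM (19.6 to 60.2) in 11 cells against 6.73 CPM (5.14 to 8.64). Nkg7, a cytotoxic granule gene, stood at 236 against 69.6 CPM, Klrd1 at 115 against 43.3 CPM and Il2rb, a receptor chain for interleukins 2 and 15, at 446 against 134 CPM. After thinning, Nkg7 was found in 20.4% of Trdc-positive cells and 6.34% of the remaining T cells, with 0.131% of B cells, and Il2rb in 38.2% and 12.9%, with 0.274% of B cells. Ccl5 stood at 3298 CPM in 40 Trdc-positive cells against 1051 CPM, and at 3077 CPM (2884 to 3279) without the largest cell, which alone held 340 of its UMIs. Eomes, a transcription factor of natural killer and memory T cells, had 21 UMIs in 11 cells, and Ifng was found in 6 cells. Of the granzyme genes, Gzmb had 15 UMIs in 5 cells, 38.4 CPM (21.5 to 63.4) against 8.16 CPM (6.41 to 10.2), and Gzma and Gzmk had none. No natural killer receptor Klrb1c (NK1.1) UMI was found in either member group.

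Genes outside these programmes also passed the rule for named genes. Tnfrsf25, a death receptor that costimulates T cells, had a log2 ratio of 2.23 (1.32 to 2.98), the transcription elongation factor gene Ell2 of 2.30 (1.87 to 2.70), Hk2, which encodes a hexokinase of glycolysis, of 2.17 (1.35 to 2.86) and Niban1 of 2.09 (1.31 to 2.74). Ikzf3, the gene of the lymphoid factor Aiolos, stood at 120.4 CPM in Trdc-positive cells against 28.3 CPM. On the lower side, Cd4 was found in 3 of 103 Trdc-positive cells and 572 of 2208 remaining T cells, 10.2 CPM (2.79 to 26.2) against 87.1 CPM (81.1 to 93.4). Trac had a log2 ratio of -1.90 (-2.54 to -1.37). Tnfrsf4 (OX40, a costimulatory receptor, -3.33), Izumo1r (folate receptor 4, -3.28), Ctla4 (an inhibitory receptor, -2.37) and Tbc1d4 (-1.83) were lower as well, as were Cd74, the invariant chain of antigen presentation (-2.68), Helb (-1.91), Fam53b (-1.88) and Usp24 (-1.78). Cd74 was found in a like share of cells, 11.7% of Trdc-positive and 12.6% of the remaining T cells. Of 10 follicular helper genes, 1 was at least 2-fold higher (Pdcd1, 2.03) and 5 were lower, 3 of them with their interval, beside 8.18% and 10.1% of all genes, with a median of -1.08, or -0.05 with genes at 0 UMIs at their bound.

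Naive and lymph node homing genes summed to a lower level than in the remaining T cells, 3042 CPM (2872 to 3220) against 3891 CPM (3851 to 3932), although few of them differed by 2-fold. Of 17 tested, 2 were at least 2-fold higher and 2 lower, with a median log2 ratio of -0.36, near the 8.18% and 10.1% of all genes. Ccr7, the homing receptor, stood at 374 CPM (316 to 439.7) in Trdc-positive cells against 537 CPM (522 to 552), Lef1 at 187 against 324 CPM, S1pr1, the exit receptor, at 318 against 343 CPM and Klf2, its activator, at 509.6 against 504 CPM. The 2 higher genes were Itgae, the integrin CD103 (43.5 against 11.7 CPM), and Ccr9, a gut homing receptor (8 UMIs in 7 cells). Of 17 tissue residency and migration genes, 7 were higher and 1 lower against the same shares of all genes, with a median of 0.84; they included Ccr2, an inflammatory chemokine receptor, with 16 UMIs in 10 cells, and Rgs1, at 348 against 99.4 CPM. Of 8 αβ receptor genes, none was higher and 4 were lower against these shares, with a median of -0.95.

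**Figure D3:**
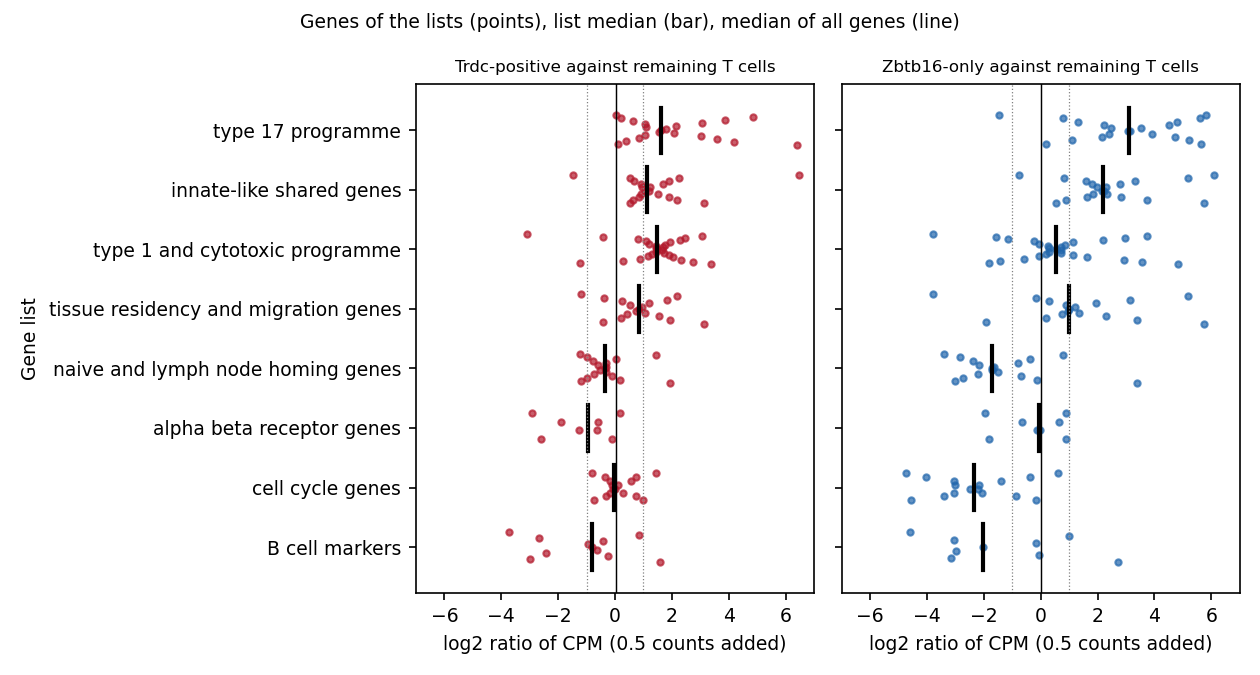
Log2 ratio of CPM (0.5 counts added) of the single genes of 8 lists, for Trdc-positive (left) and Zbtb16-only cells (right) against the remaining T cells; points are genes, bars are list medians, the solid line is the median of all genes tested and the dotted lines mark 2-fold. The type 17 list has medians of 1.62 and 3.11, the type 1 list 1.48 and 0.55, and the naive list -0.36 and -1.71.

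Trdc-positive cells were then compared among themselves by 3 short marker lists, counting a cell as positive with UMIs of 2 or more genes of a list. Type 17 markers (among them Il23r, Il17a, Il1r1, Ccr6, Blk, Sox13, Scart1 and Scart2) were reached by 20.4% (13.1 to 29.5) of Trdc-positive cells and 0.679% of the remaining T cells, with B cells, which use Blk and Ccr6, at 2.23%. Type 1 markers (Tbx21, Klrb1c, Klrd1, Nkg7, Ccl5, Il2rb and Xcl1) were reached by 49.5% (39.5 to 59.5) and 18.1%, with Cd8b1-positive T cells at 56.7% (53.8 to 59.6) and B cells at 0.312%, and naive markers (among them Ccr7, Lef1, Tcf7 and S1pr1) by 57.3% (47.2 to 67.0) and 79.8%. Type 17 and type 1 markers met in 1 Trdc-positive cell, while naive and type 1 markers met in 35. A further 20 cells had naive markers alone, 16 type 17 alone, 15 type 1 alone and 4 naive with type 17, and 12 reached none. These classes are ranges, since 11 cells lay 1 gene below the type 17 limit and 33 cells 1 gene below the type 1 limit. The limit of 2 genes is easier to reach at depth, and depth differed between the classes, with medians of 2779 UMIs in the 20 cells with type 17 and no type 1 markers, 3111.5 in the 50 cells with type 1 and no type 17 markers and 2214.5 in the 20 cells with naive markers only.

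Genes that did not define the classes differed between them. Trgc1 was counted in 14 of the type 17 cells at 568 CPM (393 to 793), in 6 of the type 1 cells at 35.3 CPM (13.0 to 76.8) and in 2 of the naive cells at 58.0 CPM (12.0 to 169). Trgc4 was counted in 2, 11 and 1 cells, at 50.1, 88.3 and 19.3 CPM, with overlapping intervals. Among the γ copies, Trgc1 was thus higher in the type 17 cells than in the other classes, within the limit set by near-identical copies. Trdv4 was found in 8 type 17 cells, 317 CPM (191 to 496), and in none of the type 1 or naive cells, where 0 UMIs allow up to 17.7 and 58.0 CPM. Trac was found in 4 of 20, 5 of 50 and 6 of 20 cells.

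The type 17 cells had the highest levels of Rora and Cxcr6 among Trdc-positive cells. Rora stood at 1336 CPM (1059 to 1663) in 17 of 20 type 17 cells, 147 CPM (95.2 to 217) in the type 1 cells and 174 CPM (79.5 to 330.1) in the naive cells, and Cxcr6 at 484, 58.8 and 19.3 CPM. Il7r, the receptor for interleukin 7, stood at 1820.3, 394 and 425 CPM, Maf at 568, 35.3 and 116 CPM, and Il18r1, an interleukin 18 receptor chain, at 301, 47.1 and 38.6 CPM. Tmem176a was found in 17 of 20 type 17 cells, 1 of 50 type 1 cells and 1 of 20 naive cells. In the type 1 cells, Ly6c2, a surface antigen of memory-like T cells, was found in 23 of 50 cells at 547 CPM (442 to 670.4), against 1 naive cell and no type 17 cell. All 11 Trdc-positive cells with Eomes UMIs were type 1 cells. Klf2 (284, 729.6 and 908 CPM in type 17, type 1 and naive cells) and Satb1, a chromatin organiser of resting T cells (384, 989 and 1526 CPM), were lowest in type 17 cells.

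**Figure D4:**
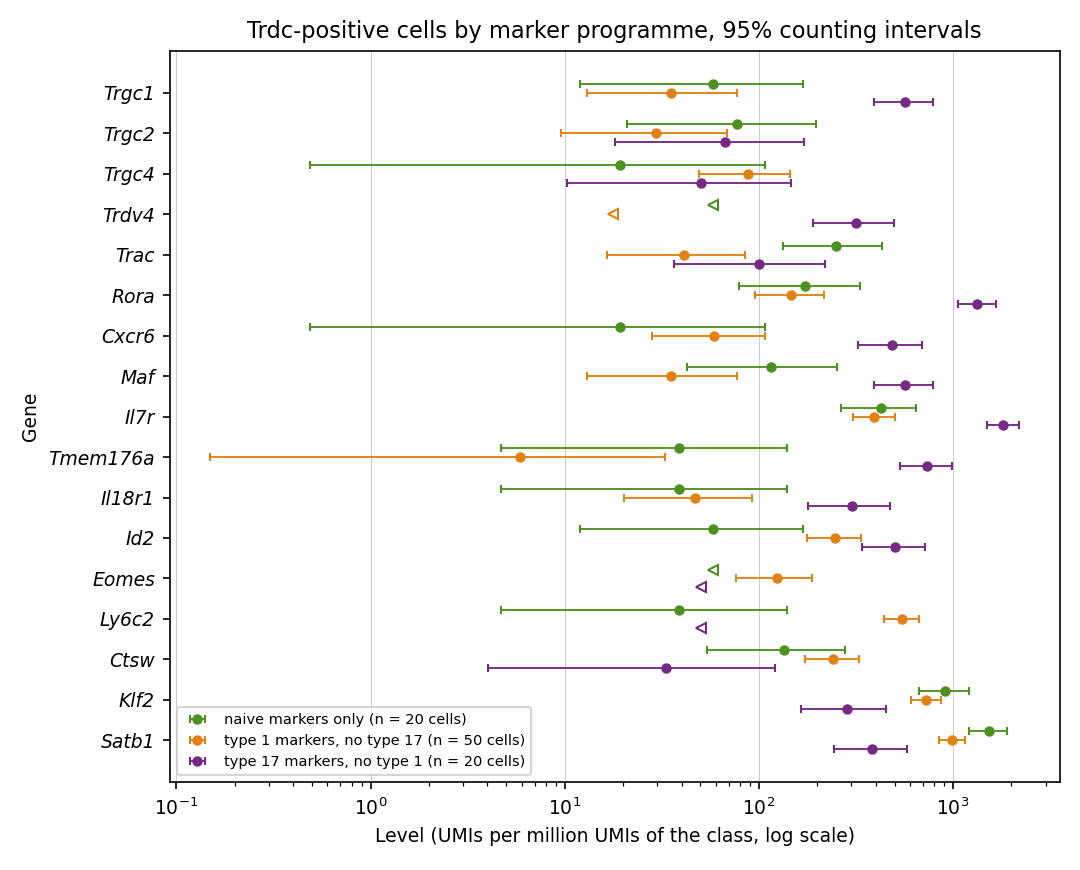
Level of 17 genes in CPM of the class (log scale) in Trdc-positive cells with naive markers only (20 cells), type 1 markers and no type 17 (50 cells) and type 17 markers and no type 1 (20 cells); points are levels, lines are 95% Poisson intervals and open triangles are the upper limit that 0 UMIs allow. Trgc1, Trdv4, Rora, Cxcr6, Il7r and Tmem176a are highest in the type 17 class, Eomes and Ly6c2 in the type 1 class, and Klf2 and Satb1 lowest in the type 17 class.

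Zbtb16-only cells held higher levels of type 17 and innate-like genes and lower levels of naive genes than the remaining T cells. Of 10440 genes tested, 15.6% were at least 2-fold higher and 18.9% at least 2-fold lower, and the median log2 ratio was 0.00; with only 101636 UMIs in the 30 cells, 4.76% and 4.03% had an interval that also left out equal levels. By the mean of single-cell CPM 26.2% were higher and 12.5% lower, with a median of 0.30. Of 20 type 17 genes, 17 were higher and 1 lower, with a median of 3.11. Of 20 innate-like shared genes, 16 were higher and none lower, with a median of 2.19, and all 16 passed with their intervals. Of 17 naive and homing genes, 1 was higher and 11 lower, with a median of -1.71, or -1.51 with genes at 0 UMIs set to their bound. The 27 type 1 genes were mixed, with 9 higher and 5 lower and a median of 0.55, or 0.00 with such genes at their bound, and 7 higher, 4 lower and a median of 0.15 without cells over 6000 genes.

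Il17a had 13 UMIs in 6 Zbtb16-only cells, 128 CPM (68.1 to 219), against 2.32 CPM (1.43 to 3.54) in the remaining T cells. Il23r, the receptor that sustains type 17 cells, had 10 UMIs in 7 cells, 98.4 CPM (47.2 to 181), against 0.441 CPM (0.120 to 1.13). Ltb4r1, the leukotriene B4 receptor, was found in 7 cells (68.9 against 1.43 CPM) and Blk in 4. Serpinb1a, a protease inhibitor of type 17 cells, stood at 462 against 9.48 CPM in 13 cells, with 26 of its 47 UMIs in 1 cell. Icos and Il2rb were found in nearly all the cells. Icos, a costimulatory receptor, stood at 2155 CPM (1879 to 2459.8) in 29 of 30 cells against 206 CPM (197 to 216), and after thinning was found in 82.0% against 18.3%, with 0.181% of B cells. Il7r stood at 1486 CPM (1258 to 1742) against 319 CPM (307 to 331), and Il2rb at 1053 CPM (863 to 1272) in 29 of 30 cells against 134 CPM (127 to 142). Among migration genes, Ccr2 stood at 335 CPM (232 to 467) in 18 cells against 9.26 CPM (7.39 to 11.5).

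Other named genes of the Zbtb16-only cells were found in 3 to 17 of the 30 cells. Pxdc1 stood at 581 CPM in 17 cells against 9.37 CPM, with a log2 ratio of 5.96 (5.45 to 6.45). Sdc1, the proteoglycan syndecan 1, stood at 384 CPM, also in 17 cells, against 9.37 CPM. The hair keratin gene Krt83 was found in 12 cells (148 against 5.07 CPM), Actn2 in 11 (log2 ratio 4.80), Mmp25, a membrane-bound metalloproteinase, in 8 (5.51), Ppp1r3b, a glycogen regulator, in 6 (5.17) and Gzmb, a granzyme, in 7 (226 against 8.16 CPM). The tight junction gene Cldn5, known from endothelium, had 23 UMIs in 3 cells, 10 of them in 1 cell, and none in the remaining T cells, at least 684-fold higher against a floor of 3 counts over the group, at least 519-fold without cells over 6000 genes, and 513-fold at the lower end of the 2-sided counting interval.

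On the lower side, Ccr7 was found in 4 of 30 Zbtb16-only cells, 98.4 CPM (47.2 to 181), against 1533 of 2208 remaining T cells, 537 CPM (522 to 552). The thinned shares were 6.71% and 44.4%. Lef1 stood at 98.4 against 324 CPM, S1pr1 at 68.9 against 343 CPM, and Klf2 at 108 against 504 CPM, while Itgae was the naive list's higher gene (118 against 11.7 CPM). The 10 lowest genes by the naming rule had no UMI in the 30 cells, where a floor of 3 counts is a level of 29.5 CPM. They were at least 4.78-fold lower for Tnfrsf4, at least 3.71-fold for the integrin gene Itga6, at least 3.13-fold for Chchd1, at least 2.89-fold for Ubash3a, a brake on receptor signalling, and at least 2.51-fold to 2.88-fold for Polr2g, Atp6v1d, Plac8, Fam241a, Ezh2 and Tomm40. At the end of the 2-sided counting interval nearest to equal levels they were 3.89-fold for Tnfrsf4, 3.01-fold for Itga6, 2.54-fold for Chchd1 and 2.04-fold to 2.35-fold for the other genes. Without cells over 6000 genes the bound against the floor fell to 1.95-fold for Chchd1, 1.84-fold for Polr2g, 1.51-fold for Tomm40 and 1.44-fold for Ezh2, and was 2.47-fold to 6.29-fold for the other genes.

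Il17a was at least 2-fold higher in both member groups, as was Rora, whose protein binds the letters AGGTCA after an AT-rich stretch. Il23r had too few UMIs for the minimum of 20 and stood at 12.8 CPM (4.16 to 29.9) in Trdc-positive cells, in 5 cells. The 250 bases before the start of Il17a (chr1:20730655-20730904, plus strand) and of Il23r (chr6:67491856-67492105, minus strand) are shown with this motif in capitals, written 5′ to 3′ on the gene's strand (RefSeq, GRCm38.p6). AGGTCA was searched on both strands, so that TGACCT is a match on the other strand.

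Il17a: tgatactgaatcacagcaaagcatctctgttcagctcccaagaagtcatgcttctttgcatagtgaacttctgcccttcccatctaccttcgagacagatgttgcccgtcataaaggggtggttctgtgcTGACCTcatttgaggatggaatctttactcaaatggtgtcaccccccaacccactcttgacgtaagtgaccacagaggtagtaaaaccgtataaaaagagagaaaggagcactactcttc
Il23r: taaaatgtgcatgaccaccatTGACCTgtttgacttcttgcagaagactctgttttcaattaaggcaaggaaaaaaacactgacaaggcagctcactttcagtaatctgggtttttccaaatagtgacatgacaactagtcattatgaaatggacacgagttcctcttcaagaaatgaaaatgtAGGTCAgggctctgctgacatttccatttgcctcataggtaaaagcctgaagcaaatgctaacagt

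Counted from the first base shown, Il17a had 1 match, at base 131 on the other strand, and Il23r had 2, at base 22 on the other strand and at base 185 on the gene's own. Of 32851 windows of the same length before RefSeq starts, 14.0% held the letters. The windows of 11 genes were searched in all, and beside these only Actn2 held a match, at base 81, while Rora, Cxcr6, Pxdc1, Sdc1, Ccr2, Ltb4r1, Mmp25 and Il18r1 held none. A match is a description of the letters and no evidence of binding.

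Set against each other, the Trdc-positive cells stood higher in naive genes and the Zbtb16-only cells in innate-like and type 17 genes, while type 1 genes were mixed. Of 3485 genes tested, 15.6% were at least 2-fold higher in Trdc-positive cells and 8.38% in Zbtb16-only cells, with a median log2 ratio of 0.06, and 9.07% and 6.74% had an interval that also left out equal levels. These shares were 8.90% and 8.65% without cells over 6000 genes and 11.3% and 10.6% by the mean of single-cell CPM. Type 1 genes numbered 7 higher and 4 lower in Trdc-positive cells of 14 tested, with a median of 0.82 (0.72 with genes at 0 UMIs at their bound). Naive genes numbered 6 higher and 2 lower of 12, with a median of 1.15. Type 17 genes numbered 2 higher and 7 lower of 15, and innate-like genes 1 higher and 10 lower of 16, with a median of -1.19. Without cells over 6000 genes the medians were 0.92, 1.05, -0.94 and -0.85. Type 1 genes then numbered 6 higher and 2 lower of 13, and naive genes 6 higher and 1 lower of 11. Type 17 genes numbered 2 higher and 6 lower of 14, and innate-like genes 1 higher and 7 lower of 16. The ratios of single genes keep the largest Trdc-positive cell, which held 21.1% of that group's UMIs. Genes that this cell lacks, such as Trac, come out lower in Trdc-positive cells for it. For single genes the log2 ratios were 2.98 (1.00 to 8.88) for Klrd1 and 3.10 (1.13 to 9.01) for Scart1. They were -2.78 (-3.55 to -2.08) for Trac, -1.91 (-2.28 to -1.54) for Rora, -2.65 (-3.23 to -2.09) for Cxcr6, -2.99 (-3.34 to -2.65) for Icos, -3.01 (-3.99 to -2.13) for Ccr2 and -3.48 (-4.31 to -2.75) for Pxdc1. Ccl5 had a log2 ratio of 3.09 (2.64 to 3.60), and stood at 3077 CPM in Trdc-positive cells without the largest cell against 384 CPM (273 to 525) in Zbtb16-only cells.

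Clustered on their own without the genes of the rule and without receptor segments, the 133 members fell into 2 clusters, which are described by their genes and left unnamed. The first held 84 cells, 79 Trdc-positive and 5 Zbtb16-only, and its leading genes by fold over the other members were Ccl5, Plac8, Itga4, Myb, Ly6c2 and Klrd1. The second held 49 cells, 24 Trdc-positive and 25 Zbtb16-only, and was led by Il2ra, Il17a, Blk, Mmp25, Sdc1 and Actn2. Most Zbtb16-only cells thus lay beside a smaller share of the Trdc-positive cells. Of the receptor genes, which took no part in the clustering, some differed: all 10 cells with Trdv4 lay in the second cluster. Trgc1 stood at 29.9 CPM in the first and 292 CPM in the second cluster. Trgc4 stood at 62.7 and 12.7 CPM, with overlapping intervals, Trgc2 at 32.9 and 38.1 CPM and Trbc1 at 499 and 565 CPM. Median depths were 2711.5 and 3090 UMIs.

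Markers of other cell types were read against the remaining T cells, beside shares over all genes of 8.18% higher and 10.1% lower for Trdc-positive and 15.6% and 18.9% for Zbtb16-only cells. Of 14 B cell markers, Ms4a1 had no UMI in either member group, and of the 11 tested in Trdc-positive cells 1 was at least 2-fold higher and 4 were lower, with a median log2 ratio of -0.82, or -0.42 with genes at 0 UMIs at their bound. Of 11 natural killer and innate lymphoid cell markers tested, 2 were higher and 2 lower in Trdc-positive cells, and 2 were higher and 4 lower in Zbtb16-only cells. Of 14 myeloid markers, Csf1r, Itgax and Siglech had no UMI in either group and Lyz2 had 1 in a Zbtb16-only cell, and of the 7 tested none was at least 2-fold higher in either group, with 4 lower in Trdc-positive cells (6 without cells over 6000 genes) and 5 in Zbtb16-only cells. A UMI of Csf1r, Cst3, Itgax or Lyz2 was nonetheless found in 31 of 103 Trdc-positive (30.1%) and 11 of 30 Zbtb16-only cells (36.7%) against 441 of 2208 remaining T cells, in the members always with Cst3, with summed levels of 179, 177 and 356 CPM. Of 5 endothelial and stromal markers tested, none was higher and 4 were lower in either group. The high endothelial genes Glycam1 and Chst4 had none, and of 26 Pecam1 UMIs in Trdc-positive cells 14 were in the largest cell, as were all 11 Cdh5 UMIs. Of 12 cancer cell markers, 7 were tested: none was higher and 2 were lower in Trdc-positive cells, with a median of 0.72 (1 higher and 2 lower without cells over 6000 genes), and 4 were higher and 1 lower in Zbtb16-only cells, with a median of 1.37, 1 of the 4 with its interval. Krt19 had 23.0 CPM in Trdc-positive, 29.5 in Zbtb16-only and 13.2 in remaining T cells, and Cldn4 and Cdh1 had no UMI in either member group. Their part in the results was not tested.

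The same gate in the primary tumor found 5 cells of 272 gated T cells without a Cd8b1 UMI, 1.84% (0.599 to 4.24), 4 of them Trdc-positive and 1 Zbtb16-only. The lymph node share was 5.68% (4.78 to 6.70), and the intervals do not overlap. The gated tumour T cells were shallower, with a median of 1443.5 UMIs against 2697, and tissue and library cannot be told apart. With 10522 UMIs in all, the 5 tumour cells allowed no comparison of single genes.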

How the data were processed

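Single-cell mRNA of lymph nodes and primary tumor was captured with the Chromium Single-Cell 3′ kit in 1 library each. The authors deposited raw UMI counts per gene and cell, made with Cell Ranger on GRCm38 (version 2.1.1 in the submitters' processing notes, 5.0.0 in the file headers). Counts of 22620 genes were read as sparse matrices, and samples were grouped by tissue from their labels. Members were gated on raw counts as the report states. The members and the gene lists were chosen with earlier results of these data known, so no list is independent support; a few genes of the lists are counted in them and not reported here by name. No test was run, since each group is cells of 1 library; where a count was summed over a group, it was given as CPM. Ratios are log2 ratios of CPM with 0.5 counts added, for genes with at least 20 UMIs over both groups, and called at 2-fold. Named genes are the 15 highest and 10 lowest ratios among genes found in at least 10% of the cells of the higher group, without rule, mitochondrial, haemoglobin and immunoglobulin genes, beside the genes of the lists. B cells had at least 3 UMIs of Cd79a and Cd79b and no CD3 UMI. Shares were thinned by the expected share after drawing 1000 UMIs per cell without replacement. Members were clustered by Leiden (resolution 0.5) on 15 components of 1000 variable genes. Intervals cover counting error only, at 95%, and a count of 0 was read against a floor of 3 counts. Clustering and the doublet score used scanpy 1.11.5, intervals scipy 1.17.1 and figures matplotlib 3.10.9, and the scripts were tested on simulated counts. Gene positions are GENCODE vM21, and gene symbols of the files newer than it were matched by gene identifier.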

Additional observations from a re-analysis of the deposited data

Results flagged for a closer look

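Trdc UMIs also appeared in cells outside the T cell gate. Of 1073 lymph node cells with 5 or more keratin UMIs (Krt8 and Krt18) and no CD3 UMI, which no comparison uses, 381 (35.5%) had a Trdc UMI, a level of 10.8 CPM (9.98 to 11.8) with at most 6 UMIs in 1 cell. In B cells the level was 0.689 CPM. These keratin-rich cells were deep, with a median of 45438 UMIs, and after thinning to 1000 UMIs the share was 0.984% (0.483 to 1.77), against 0.0460% of B cells and 2.52% of gated T cells. Trac stood at 8.45 CPM and Trbc2 at 30.7 CPM in the same cells, and Trgc1 at 0.0552 CPM. Keratin-rich cells of the primary tumor without CD3 UMIs (7080 cells, median of 16152 UMIs) had 4.39 CPM of Trdc. The source of these UMIs was not tested. Of the 771 lymph node cells within the gene and mitochondrial limits that had a Trdc or Zbtb16 UMI, the 133 members among them, 575 did not meet the keratin condition and 409 had no CD3 UMI, and 89 were left out by the keratin condition alone.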

How the results depend on the processing

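The order of the members' receptor chains, programmes and list medians is a description of 1 library. Of the 25 named genes of each comparison with the remaining T cells, over 14 alternatives each, 333 of 350 values for Trdc-positive cells and 329 of 350 for Zbtb16-only cells stayed within the counting interval. These genes were chosen for extreme ratios and some intervals are open on 1 side, so this says little about stability. With at least 2 UMIs asked for, Trdc-positive cells were 2.39% and Zbtb16-only cells 0.384% of gated T cells. Thinned to 2000 UMIs, Trdc was found in 3.69% and Zbtb16 in 1.32%.

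For Trdc-positive against remaining T cells (858 higher, 1055 lower), the lower genes numbered 2118 with at least 2 Trdc UMIs, 2137 with Cd79a and Cd79b of 0, 2212 without the member with most UMIs, 466 against remaining T cells with a Cd4 UMI, 695 at a minimum of 50 UMIs, 211 with cells thinned, 207 with 2 counts added and 284 with the counting interval. The higher genes numbered 1351 by the mean of single-cell CPM, 2481 thinned, 482 at a minimum of 50 UMIs, 1553 at a minimum of 5, 1701 with 2 counts added and 361 with the counting interval. The type 17 median was 2.75 by the mean of single-cell CPM and 2.77 thinned, and the type 1 median 2.80 against cells with Cd4. The median of all genes lay at 0.36 thinned, 0.29 with 2 counts added and -0.13 without the member with most UMIs.

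For Zbtb16-only against remaining T cells (1633 higher, 1969 lower), the lower genes numbered 1244 with at most 6000 genes per cell in either form, 1153 with at least 2 UMIs, 1302 by the mean of single-cell CPM, 244 thinned, 338 with 2 counts added and 421 with the counting interval. The higher genes numbered 3759 with at least 2 UMIs, 2735 by the mean of single-cell CPM, 5097 thinned, 3453 at a minimum of 5 UMIs, 875 against cells with Cd4, 4583 with 2 counts added and 497 with the counting interval. The type 1 median was 1.73 thinned, 1.81 against cells with Cd4 and 1.89 with 2 counts added. The median of all genes lay at 0.97 thinned, 0.83 with 2 counts added and 0.54 with at least 2 UMIs.

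For Trdc-positive against Zbtb16-only (544 higher, 292 lower), the higher genes numbered 248 with at most 6000 genes in either form, 269 without the member with most UMIs, 157 with at least 2 UMIs, 231 with Cd79a and Cd79b of 0, 207 with at least 3 CD3 UMIs, 201 thinned, 142 at a minimum of 50 UMIs, 1726 at a minimum of 5, 298 with 2 counts added and 316 with the counting interval. The lower genes numbered 159 with at least 2 UMIs, 133 at a minimum of 50 UMIs and 929 at a minimum of 5. Leiden resolution 1.0 gave 5 clusters. The causes of these shifts were not tested. The alternative with the counting interval and the one without the largest Trdc-positive cell were chosen after seeing the data, as was the split by 1 and by 2 or more Trdc UMIs. No paired analysis was possible because each tissue has 1 library, labelled replicate 1. The 101636 UMIs of the Zbtb16-only cells limit the detection of genes under about 29.5 CPM.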

Other observations

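Regulatory and response genes outside the receptor and effector programmes were also read in the members. In Trdc-positive cells, Areg, which encodes the tissue repair factor amphiregulin, had 82 UMIs in 7 cells, 210.0 CPM against 28.0 CPM in the remaining T cells, and no UMI in Zbtb16-only cells. Areg was the 1 higher gene of 5 type 2 genes tested, with none lower. Levels were uneven: over the whole type 2 list, the highest Trdc-positive cell stood at 18736 CPM and the median cell at 0. In Zbtb16-only cells 3 of 5 were higher, Icos, Gata3 and Calca, 2 of them with their interval, and 1 was lower, without it. Without cells over 6000 genes 2 of 5 were higher and 1 lower. Pdcd1, the checkpoint receptor PD-1, stood at 53.8 CPM (33.3 to 82.2) in 16 Trdc-positive cells and 13.5 CPM (11.2 to 16.1) in the remaining T cells, while Lag3 had no UMI in either member group. Of 13 checkpoint genes tested in Trdc-positive cells, 2 were at least 2-fold higher and 5 lower, with a median log2 ratio of -0.14, or 0.00 with the gene at 0 UMIs at its bound, beside 8.18% and 10.1% of all genes. Of 16 immediate early genes, 3 were higher and none lower, with a median of 0.65. In Zbtb16-only cells 4 were higher and 3 lower, with a median of 0.72, near the 15.6% and 18.9% of all genes. Without cells over 6000 genes 3 were higher and 1 lower there, with a median of 0.48, beside 17.8% and 13.2% of all genes. Fos stood at 1417 CPM (1195 to 1668) in Zbtb16-only, 423 CPM (361 to 492) in Trdc-positive and 169.7 CPM (161 to 178) in remaining T cells.

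Cell cycle and interferon response genes moved with the large cells. Of 16 cell cycle genes tested in Trdc-positive cells, 1 was higher and none lower, with a median of -0.05, and without cells over 6000 genes none was higher and 5 were lower, with a median of -0.36, where 8.01% of all genes were higher and 12.1% lower. In Zbtb16-only cells none was higher and 12 were lower, with a median of -2.36 (-1.13 with genes at 0 UMIs at their bound), and without cells over 6000 genes 8 were lower, 3 of them with their interval, with a median of -0.95 (-0.20 at their bound). The shares over all genes in Zbtb16-only cells were 15.6% higher and 18.9% lower, and 17.8% and 13.2% without cells over 6000 genes. Mki67, a proliferation gene, had 37 UMIs in 3 Trdc-positive cells, 35 of them in the largest cell, and none in Zbtb16-only cells, where 0 UMIs allow up to 29.5 CPM. Of 15 interferon response genes, 4 were higher and 2 lower in Trdc-positive cells, with a median of 0.10, and without cells over 6000 genes none was higher and 5 were lower, with a median of -0.59. Of 8 heat shock genes, none was higher and 1 lower in Trdc-positive cells, with a median of 0.14, near the share of all genes. That share was 8.18% higher and 10.1% lower in Trdc-positive cells with the large cells kept. In Zbtb16-only cells no heat shock gene was higher and 4 were lower, with a median of -1.14.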
